A study of Mus musculus with 114 samples.

Results

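The fast voltage-gated potassium channel genes Kcna1, Kcna2, Kcna4 and Kcna6 of the Kv1 family and Kcnc1, Kcnc2 and Kcnc4 of the Kv3 family were followed. They were chosen by name and found in the count table by their Ensembl identifiers, 7 genes of 13101 identifiers in all, and all 7 passed the filter on low counts. The libraries hold RNA bound to haemagglutinin-tagged ribosomes, pulled down with an antibody from the prefrontal cortex of Ribo-tag mice, in which the tag is expressed only in a chosen cell type. The study sampled PV (parvalbumin) interneurons and pyramidal cells, of both sexes, at zeitgeber times (ZT, in h from the start of the light phase) ZT2, ZT6, ZT10, ZT14, ZT18 and ZT22. Every group shares the Ribo-tag genotype. The age of the mice, the Cre line that switched the tag on and whether each library came from its own animal are not given in the labels, so p-values measure the spread between these libraries, which may be partly technical. In every library the title's prefix (PV or C) goes against the cell type given beside it in the labels, so groups are named here by the title. There were 55 PV-titled libraries (28 of females and 27 of males) and 58 C-titled ones (29 of each sex), with 8 to 10 libraries for each prefix and time.

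Channels of both families are built from several pore-forming subunits and open on depolarisation. Kv1 subunits open at low voltages, sit mostly along axons and at terminals, and set how readily a spike starts and how far it spreads. Kv3 subunits open only near the peak of a spike and close fast, which lets a neuron fire brief spikes at high rates, and they are known as a hallmark of cortical PV interneurons.

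The libraries held 19098081 to 39463892 counts in the PV-titled set and 24559670 to 44077429 in the C-titled set. The markers sided with the titles: 12 of 12 PV interneuron markers were higher in PV-titled libraries and 10 of 12 pyramidal markers were higher in C-titled ones. The summed level of the pyramidal markers ran from 1564 to 3829 CPM (counts scaled to a common library total) in PV-titled and from 3899 to 7840 CPM in C-titled libraries, so pyramidal RNA was not at 0 in the PV-titled set. Every marker tested of astrocytes (10), oligodendrocytes (7), their precursors (3), microglia (10) and vessels (8) was higher in PV-titled libraries. Of 9 markers of other interneurons tested, 7 were higher in PV-titled libraries, among them Sst (4.75-fold), Vip (5.65-fold) and Npy (8.71-fold), and Cck and Lamp5 were higher in C-titled ones. Their summed level ran from 327.1 to 855.5 CPM (median 537.9) in PV-titled and from 702.9 to 3015 CPM (median 1232) in C-titled libraries. The C-titled sum was mostly Cck, which had a mean of 1001.7 CPM there and was 4.94-fold higher than in PV-titled libraries. The sum therefore does not show the direction of the 7 markers that were higher in PV-titled libraries. Summed astrocyte markers had a median of 1511 CPM (range 1186 to 2695) against 573 CPM (371 to 1363), and summed microglia markers 234.2 CPM (195.96 to 345) against 68.0 CPM (46.9 to 106). The part of these cell types in the differences below was not tested. In pulled-down RNA fewer cells of a type and less RNA per cell cannot be told apart. Library numbers fall into 2 separate ranges, used as a term in every fit. 8 libraries correlated less with the rest of their prefix than the others did: 5 C-titled at ZT2 and ZT6 and 3 PV-titled at ZT10, ZT14 and ZT22. Several of the lowest values of the members come from these libraries, as do the highest C-titled values of Kcna2, Kcna6 and Kcnc2. Differences between prefixes and counts of rhythmic members are given with and without them.

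The Kv3 genes separated the kinds of library in opposite directions. Kcnc2 encodes Kv3.2, a slowly inactivating Kv3 subunit. Its level ran from 98.0 to 337 CPM (median 155.9) in PV-titled libraries and from 22.3 to 75.2 CPM (median 45.0) in C-titled libraries. Every PV-titled library was above every C-titled library, and how many of all genes separate as fully was not counted. The means were 166.97 CPM ± 45.7 (SD, n = 55) and 44.9 CPM ± 10.4 (SD, n = 58), a 3.73-fold difference (log2 difference 1.90, SE 0.07, edgeR adjusted p = 1.01e-51). Of all 13053 genes tested, 90.4% had a lower log2 difference, and the same test called 87.5%. Kcnc1 encodes Kv3.1, the other subunit that supports sustained fast firing. It ran from 35.8 to 161.1 CPM (median 84.6) in PV-titled and from 25.6 to 86.8 CPM (median 45.5) in C-titled libraries. The groups overlapped, with 52 of 55 PV-titled libraries above the C-titled median and 27 above every C-titled library. In PV-titled libraries its mean was 63.8 CPM in the first range of library numbers and 114.5 CPM in the second. In C-titled libraries it was 40.6 and 59.5 CPM, and the overlap counts pool both ranges. The means were 90.5 CPM ± 32.2 (SD, n = 55) and 50.1 CPM ± 13.9 (SD, n = 58), a 1.74-fold difference (log2 difference 0.80, SE 0.06, edgeR adjusted p = 1.25e-25).

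The 250 bases before a RefSeq start of Kcnc2 and of Kcnc1 are shown because these were the members with the largest excess in PV-titled libraries. They were taken from RefSeq promoter windows on build GRCm38.p6, in which 6 of the 7 members had an entry, and are written 5′ to 3′ on the plus strand. Kcnc2 spans chr10:112271121-112467024 and Kcnc1 chr7:46396497-46438704, both on the plus strand of GRCm38. RefSeq lists 4 starts for Kcnc2, and the window before the most upstream of them is given. That start lies upstream of the start of the Kcnc2 span given here, so the window does not adjoin the span. Capitals mark the GC box (GGGCGG, or CCGCCC on the other strand) and the CCAAT box (CCAAT, or ATTGG), both common promoter motifs.
Kcnc2, chr10:112269767-112270016: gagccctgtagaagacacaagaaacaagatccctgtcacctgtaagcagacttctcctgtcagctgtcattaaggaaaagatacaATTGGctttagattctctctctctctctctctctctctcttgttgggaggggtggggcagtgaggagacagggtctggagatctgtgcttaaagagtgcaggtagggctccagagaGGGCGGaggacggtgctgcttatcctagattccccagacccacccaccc
Kcnc1, chr7:46396218-46396467: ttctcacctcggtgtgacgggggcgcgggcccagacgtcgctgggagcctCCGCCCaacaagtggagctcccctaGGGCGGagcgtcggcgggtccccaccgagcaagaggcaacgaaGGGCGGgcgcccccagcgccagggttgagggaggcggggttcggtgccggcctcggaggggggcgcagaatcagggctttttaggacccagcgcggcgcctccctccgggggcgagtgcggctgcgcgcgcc
The Kcnc1 window is 74.4% GC with 3 GC boxes and no CCAAT box. The Kcnc2 window is 52.4% GC, equal to the median over 32851 windows of the same length, with 1 GC box and 1 CCAAT box. A GC box occurs in 32.7% of those windows and a CCAAT box in 33.8%. Neither window holds an E-box (CACGTG, in 6.02% of windows), a cAMP response element (TGACGTCA, in 1.55%) or a TATA box (TATAAA or TTTATA, in 12.4%).

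Kcnc4, which encodes the fast-inactivating subunit Kv3.4, went the other way. It ran from 7.51 to 93.4 CPM (median 52.5) in PV-titled and from 15.5 to 126 CPM (median 94.2) in C-titled libraries. No PV-titled library reached the C-titled median, and 31 of 58 C-titled libraries lay above every PV-titled one. The means were 50.2 CPM ± 18.4 (SD, n = 55) and 90.3 CPM ± 23.5 (SD, n = 58), so the gene was 1.86-fold higher in C-titled libraries (log2 difference -0.89, SE 0.09, edgeR adjusted p = 4.53e-16). The lowest library of each prefix was a library of low correlation, and without those 8 libraries the log2 difference was -0.94 (edgeR adjusted p = 2.09e-22). The gene lies at chr3:107438303-107459552 on the minus strand.

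The Kv1 genes differed less. Kcna1 encodes Kv1.1 and Kcna2 encodes Kv1.2, low-threshold subunits that often share a channel on axons. Kcna1 ran from 26.0 to 139 CPM (median 78.0) in PV-titled and from 45.5 to 143.8 CPM (median 79.6) in C-titled libraries. The groups covered almost the same range, and 25 of 55 PV-titled libraries were above the C-titled median. The means were 84.0 CPM ± 25.0 (SD, n = 55) and 81.6 CPM ± 20.8 (SD, n = 58), and the gene did not pass the test (log2 difference 0.01, SE 0.05, edgeR adjusted p = 0.814). Kcna2 ran from 81.7 to 258.4 CPM (median 170) in PV-titled and from 67.0 to 214.6 CPM (median 147.2) in C-titled libraries. Here 40 of 55 PV-titled libraries were above the C-titled median, with wide overlap. The means were 170 CPM ± 41.3 (SD, n = 55) and 141.7 CPM ± 32.2 (SD, n = 58), a 1.19-fold difference (log2 difference 0.25, SE 0.06, edgeR adjusted p = 0.000169). Kcna1 lies at chr6:126640397-126646384 on the minus strand and Kcna2 at chr3:107101146-107115005 on the plus strand.

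Kcna6 and Kcna4 were lower in PV-titled libraries. Kcna6 encodes Kv1.6, a delayed-rectifier subunit that joins Kv1.1 and Kv1.2 in mixed channels. It ran from 20.3 to 104 CPM (median 66.5) in PV-titled and from 39.0 to 118 CPM (median 82.8) in C-titled libraries. In all, 43 of 55 PV-titled libraries were below the C-titled median. The means were 67.2 CPM ± 18.5 (SD, n = 55) and 81.0 CPM ± 16.1 (SD, n = 58) (log2 difference -0.28, SE 0.07, edgeR adjusted p = 6.42e-05). Kcna6, at chr6:126708329-126740674 on the minus strand, overlaps exons of Gm26673 on the other strand. Whether counting used strand is not given in the sources used here, so its level is uncertain. Kcna4 encodes Kv1.4, the fast-inactivating member of the family. It ran from 4.88 to 36.8 CPM (median 12.9) in PV-titled and from 14.4 to 34.8 CPM (median 23.2) in C-titled libraries. All 58 C-titled libraries were above the PV-titled median, and 32 of 55 PV-titled libraries were below every C-titled one. The means were 14.8 CPM ± 6.84 (SD, n = 55) and 23.2 CPM ± 4.23 (SD, n = 58), so Kcna4 was 1.60-fold higher in C-titled libraries (log2 difference -0.68, SE 0.09, edgeR adjusted p = 1.73e-11).

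Kcna4 lies at chr2:107290639-107298502 on the plus strand. Its window is shown as that of the Kv1 member with the largest difference, with the GC box in capitals.
Kcna4, chr2:107290339-107290588: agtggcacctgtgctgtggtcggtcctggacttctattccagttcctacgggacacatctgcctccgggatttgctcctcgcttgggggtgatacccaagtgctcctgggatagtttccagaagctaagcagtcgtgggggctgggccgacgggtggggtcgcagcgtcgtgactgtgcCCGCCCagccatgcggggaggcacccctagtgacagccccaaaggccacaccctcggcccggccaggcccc
The window is 65.2% GC, holds 1 GC box on the other strand and none of the other 4 motifs.

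**Figure D1:**
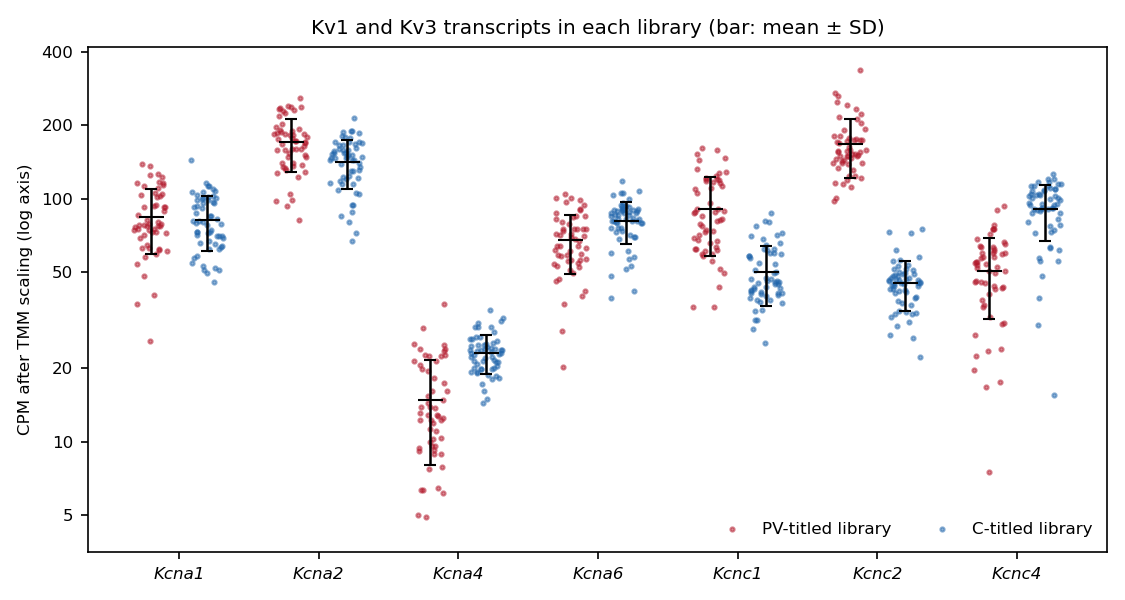
Level of each gene in every library (CPM after TMM scaling, log axis), with PV-titled libraries in red and C-titled libraries in blue and the mean ± SD in black. Kcnc2 is the gene whose libraries do not overlap, and Kcna1 has nearly the same mean in both sets (84.0 and 81.6 CPM).

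Across the members, 3 of 7 were higher in PV-titled libraries (Kcnc2, Kcnc1, Kcna2), 3 were lower (Kcnc4, Kcna4, Kcna6) and Kcna1 did not pass the test. The same test called 87.5% of the 13053 genes tested (44.3% higher and 43.2% lower in the PV-titled set), so 6 of 7 is near the share over all genes. The median log2 difference was 0.01 over the members and 0.01 over all genes. Scaling by library totals without TMM factors raised the median of all genes to 0.21 and moved the share of called genes that were higher in PV-titled libraries from 50.7% to 61.7%. Under that scaling Kcna1 was called (log2 difference 0.21, edgeR adjusted p = 0.000873) and Kcna6 was not (-0.08, edgeR adjusted p = 0.298), while the direction of the other 5 did not turn. Without the 8 libraries of low correlation 6 of 7 members were called, where 88.7% of all genes were, and Kcnc2 differed by 1.91. In that fit the log2 difference was 0.79 for Kcnc1, 0.24 for Kcna2, -0.67 for Kcna4, -0.29 for Kcna6 and -0.01 for Kcna1.

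The fast-inactivating member of each family was lower in PV-titled libraries. Within the Kv3 family the genes changed places. Levels of different genes were compared per length, as CPM per kb of merged exons, and each gene is given as a share of its family's members in the same library. Of the Kv3 total, Kcnc2 took 50.8% ± 9.39 (SD, n = 55) in the PV-titled and 18.3% ± 6.60 (SD, n = 58) in the C-titled set. Kcnc4 took 29.0% ± 8.18 and 66.9% ± 8.02, with 57 of 58 C-titled libraries above every PV-titled one. Kcnc1 took 20.2% ± 4.05 and 14.9% ± 3.68. The leading Kv3 transcript was therefore Kcnc2 in the mean of the PV-titled libraries and Kcnc4 in that of the C-titled libraries. The log2 ratio of Kcnc2 to Kcnc4 per kb was 0.85 ± 0.71 (SD) in PV-titled libraries and above 0 in 50 of 55, against -1.93 ± 0.63 (SD) in C-titled libraries and above 0 in 1 of 58.

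**Figure D2:**
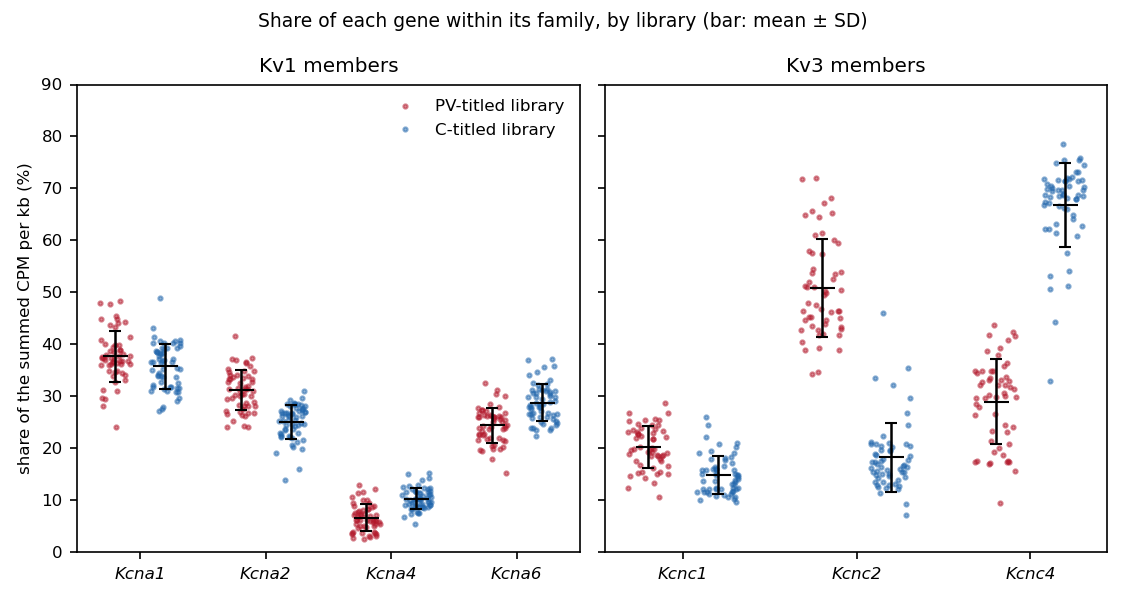
Share of each gene in the summed CPM per kb of its family, in every library, with mean ± SD. In the Kv3 panel Kcnc2 and Kcnc4 change places between PV-titled (red) and C-titled (blue) libraries, while the Kv1 panel shows the same order of means in both but for Kcna2 and Kcna6.

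Of the Kv1 total, Kcna1 took the most in both sets, 37.7% ± 4.90 (SD, n = 55) in the PV-titled and 35.8% ± 4.32 (SD, n = 58) in the C-titled set. Kcna2 took 31.2% ± 3.85 and 25.1% ± 3.33, and Kcna6 took 24.4% ± 3.37 and 28.8% ± 3.57. Kcna4 was the least in both, at 6.67% ± 2.55 and 10.3% ± 1.98. Over all 7 members in PV-titled libraries the order of mean CPM per kb was Kcnc2 (23.4), Kcna1 (17.6), Kcna2 (14.3), Kcnc4 (13.7), Kcna6 (11.3), Kcnc1 (9.57) and Kcna4 (3.07). The bands of mean ± SD of neighbours in that order overlapped except for Kcnc1 and Kcna4. In C-titled libraries the order was Kcnc4 (24.6), Kcna1 (17.1), Kcna6 (13.6), Kcna2 (11.9), Kcnc2 (6.29), Kcnc1 (5.29) and Kcna4 (4.80), and the bands of neighbours overlapped except for Kcna2 and Kcnc2.

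The difference between the kinds of library was present through the day for the 4 genes with the largest differences. Kcnc2 was 3.08-fold (ZT22) to 4.23-fold (ZT18) higher in PV-titled libraries and passed the test at all 6 times, and Kcnc1 was 1.51-fold (ZT10) to 2.0-fold (ZT2) higher and passed at all 6. Kcnc4 was 1.65-fold (ZT2) to 2.14-fold (ZT6) higher in C-titled libraries and passed at all 6 times. Kcna4 was 1.30-fold (ZT14) to 2.03-fold (ZT6) higher in C-titled libraries and passed at every time but ZT14 (edgeR adjusted p = 0.0946). Kcna6 passed at ZT6 and ZT10 alone, Kcna2 at ZT14 alone, and Kcna1 at no time. The members called numbered 4 at ZT2 (71.2% of all genes), 5 at ZT6 (72.8%), 5 at ZT10 (67.1%), 4 at ZT14 (72.1%), 4 at ZT18 (68.7%) and 4 at ZT22 (68.5%).

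**Figure D3:**
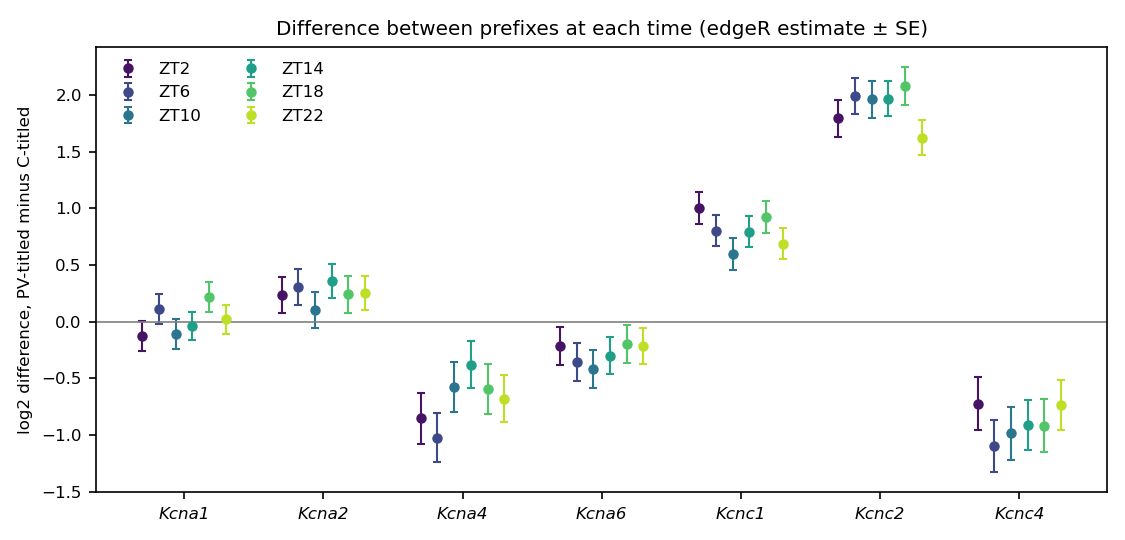
Log2 difference, PV-titled minus C-titled, for each gene at each of the 6 times (edgeR estimate ± SE). Kcnc2 lies between 1.62 and 2.08 at every time, Kcnc4 below 0 at every time, and Kcna1 on both sides of 0.

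Levels differed between the ranges of library numbers. Kcna1 had a mean of 65.2 CPM (first) and 100.9 CPM (second) in PV-titled, and 66.9 and 96.3 CPM in C-titled libraries. Every member's mean was higher in the second range in both sets, except Kcnc2 in C-titled libraries (46.9 and 42.8 CPM). The SDs, extremes and overlaps given for levels pool both ranges. Within each range of library numbers the directions of the 6 called genes held. In the first and in the second range alone, the log2 difference was 1.75 and 2.04 for Kcnc2, 0.64 and 0.95 for Kcnc1, -1.08 and -0.72 for Kcnc4, and -0.88 and -0.52 for Kcna4. Kcna2 was not called in the first range alone (0.15, edgeR adjusted p = 0.117). The change of the difference between ranges passed the test for 1 of 7 members, Kcnc1 (0.31, SE 0.11, edgeR adjusted p = 0.0424), where 16% of all genes did.

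The level of most members also varied with the level of PV interneuron markers among PV-titled libraries. Against the summed level of the 12 PV interneuron markers (297.8 to 1612 CPM), fitted with time, sex and range, 5 of 7 members rose and passed the test, where 5.39% of all genes rose. On the log2 scale the slope was 0.72 (SE 0.09) for Kcnc2, 0.71 (SE 0.13) for Kcna6, 0.57 (SE 0.09) for Kcna1, 0.52 (SE 0.09) for Kcnc1 and 0.50 (SE 0.10) for Kcna2, with edgeR adjusted p from 2.82e-08 (Kcnc2) to 0.000252 (Kcna2). Kcnc4 (0.47, SE 0.21, edgeR adjusted p = 0.132) and Kcna4 (-0.05, SE 0.24, edgeR adjusted p = 0.921) did not pass. Both are the fast-inactivating members, but the slope of Kcnc4 was near that of Kcna2, with a larger error. The difference between the slopes of Kcnc4 and Kcna4 and those of the other members was not tested. Kcna6 and Kcna1 thus rose with the PV marker level among PV-titled libraries although neither was higher there than in C-titled libraries. Cplx1, with a mean of 313.6 CPM in C-titled libraries as well, made up 54.3% of the marker sum in the median library. With Cplx1 and the libraries of low correlation both left out, Kcnc2 (0.76), Kcnc1 (0.46) and Kcna1 (0.39) were still called, Kcna2 (0.34, edgeR adjusted p = 0.124) and Kcna6 (0.28, edgeR adjusted p = 0.475) were not, and Kcnc4 turned to -0.19 (edgeR adjusted p = 0.840). In that fit 0.896% of all genes rose.

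**Figure D4:**
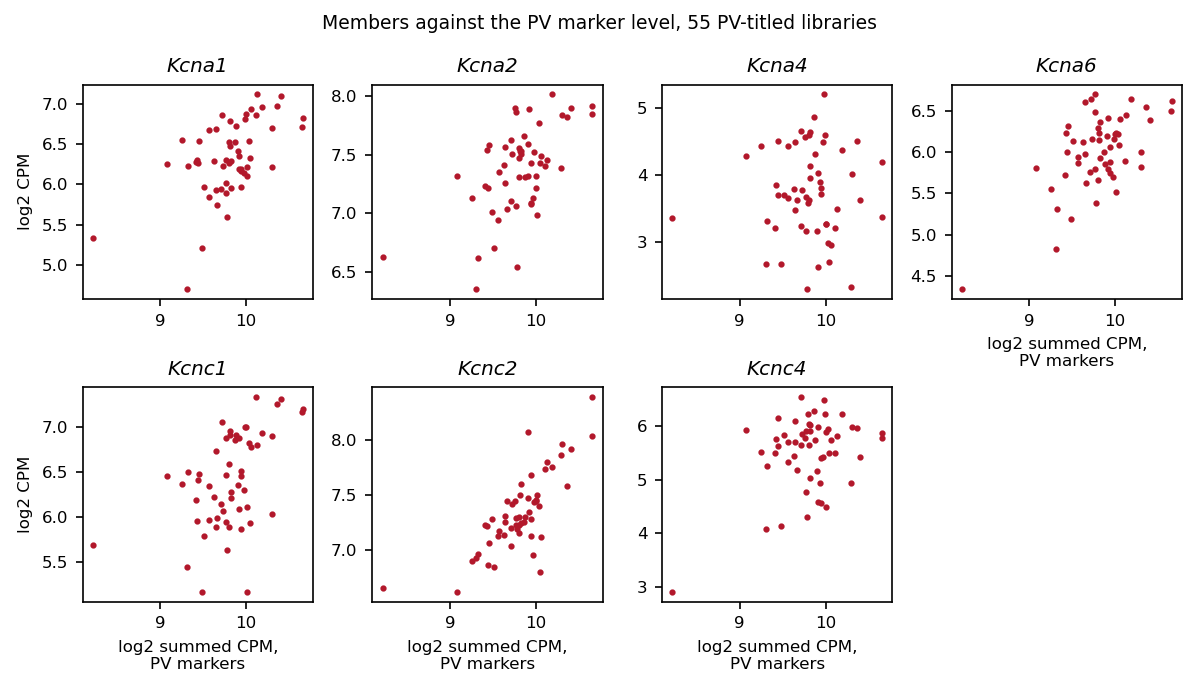
Log2 CPM of each gene against the log2 summed CPM of the 12 PV interneuron markers in the 55 PV-titled libraries (1 point a library). Kcnc2 rises with the markers (slope 0.72) and Kcna4 does not pass the test (slope -0.05).

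Over the day few members passed the test of a rhythm. Each gene was fitted with a 24 h cosine, and the amplitude is the log2 distance from mean to peak. In PV-titled libraries 0 of 7 members passed the edgeR test, where 3.1% of all genes did. Kcna1 alone had an unadjusted p under 0.05 there (0.0418, edgeR adjusted p = 0.271), with an amplitude of 0.15 (SE 0.06) and a fitted peak at ZT20.7. Its libraries ran from 40.2 to 117 CPM (median 67.5) at ZT14, the time of the lowest mean, and from 71.9 to 139 CPM (median 102) at ZT18, the time of the highest. Those times overlapped. Larger amplitudes with larger errors were fitted for Kcna4 (0.18, SE 0.12, edgeR adjusted p = 0.658) and Kcnc4 (0.16, SE 0.10, edgeR adjusted p = 0.587), and neither passed. The members' median amplitude was 0.14, against 0.11 over all genes. With the PV marker level as a further term Kcna1 passed (amplitude 0.20, edgeR adjusted p = 0.0168), in a fit where 4.22% of all genes passed. DESeq2 called 0 of 7 members in these libraries, where it called 4.39% of all genes.

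In C-titled libraries 1 of 7 members passed, Kcnc2, where 27% of all genes passed. Its mean was highest at ZT2, 50.8 CPM ± 12.3 (SD, n = 10; libraries 41.5 to 75.2), and lowest at ZT14, 38.5 CPM ± 7.90 (SD, n = 10; libraries 26.6 to 50.6). The libraries of those times overlapped. The fit gave an amplitude of 0.18 (SE 0.06), a 1.28-fold range over the day, a fitted maximum at ZT2.22 (SE 1.22 h) and an edgeR adjusted p = 0.0400. The highest C-titled library, at ZT2, was a library of low correlation, and without those libraries the edgeR adjusted p was 0.0467. The call was lost in the first range alone (amplitude 0.08, edgeR adjusted p = 0.763) and held in the second (0.28, edgeR adjusted p = 0.0403). It was lost as well without any 1 of the 6 times, with edgeR adjusted p from 0.0522 (without ZT18) to 0.330 (without ZT14). In PV-titled libraries Kcnc2 had an amplitude of 0.09 (SE 0.07), a fitted peak at ZT6.76 and an edgeR adjusted p = 0.694, and the rhythm was not shown to differ between the kinds of library (edgeR adjusted p = 0.645).

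Kcna4 in C-titled libraries had an amplitude of 0.11 (SE 0.04) and did not pass (edgeR adjusted p = 0.135). Its mean there was 26.2 CPM ± 4.0 (SD, n = 10) at ZT6 and 20.7 CPM ± 2.89 (SD, n = 9) at ZT18, with libraries from 21.3 to 32.1 and from 16.1 to 24.9 CPM, so the times overlapped. It passed without the libraries of low correlation (amplitude 0.15, edgeR adjusted p = 0.0258) and without ZT2 (0.20, edgeR adjusted p = 0.0113). For the other members in C-titled libraries the amplitude ran from 0.05 (Kcna6) to 0.11 (Kcnc1), with edgeR adjusted p from 0.192 (Kcnc1) to 0.765 (Kcna2). With time as a factor of 6 levels 0 of 7 members passed in either set, where the share of all genes was 1.2% (PV-titled) and 10% (C-titled). The unadjusted p was under 0.05 for Kcna1 in PV-titled libraries (0.0347) and for Kcna4 in C-titled libraries (0.00911). Across the 7 genes and both sets, the highest mean of a time exceeded the lowest by 1.14-fold (Kcna6, C-titled) to 1.40-fold (Kcnc4, PV-titled), and for no gene did the libraries of those times lie apart.

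**Figure D5:**
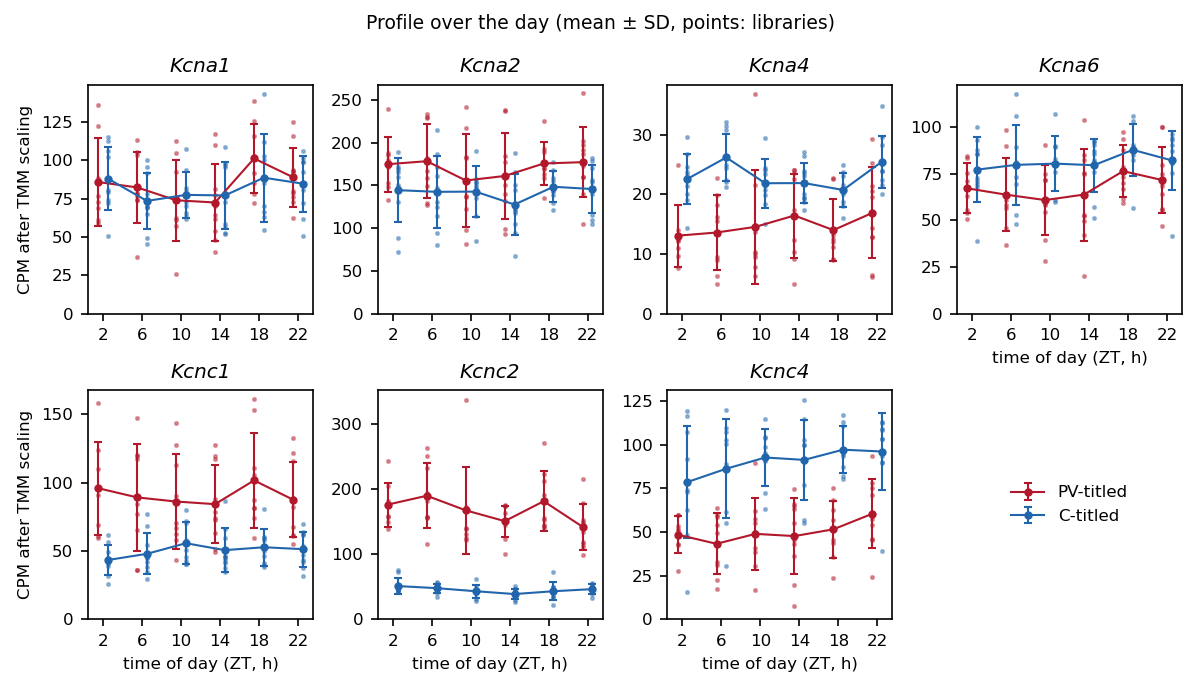
CPM of each gene at the 6 times of day in PV-titled (red) and C-titled (blue) libraries, with mean ± SD and 1 point a library. The distance between the sets for Kcnc2 is larger than any movement over the day, and its C-titled mean falls from 50.8 CPM at ZT2 to 38.5 CPM at ZT14.

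The rhythm of 0 of 7 members differed between the kinds of library by edgeR (1.12% of all genes) or DESeq2 (1.84% of all genes). No member's unadjusted edgeR p was under 0.05 (from 0.114 for Kcna4 to 0.966 for Kcna2). Sex differences passed the edgeR test in 0 of 7 members of either set, where the share of all genes was 0.0307% (PV-titled) and 0.184% (C-titled). The lowest unadjusted p was that of Kcna6 in C-titled libraries, 0.17 higher in females on the log2 scale (SE 0.08, p = 0.0294 by edgeR, adjusted p = 0.582). The rhythm differed between the sexes in 0 of 7 members and in 0% of all genes in both sets by edgeR, with no member's unadjusted p under 0.05.

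Channel genes outside the 7 members were read from lists. Kcna3 (Kv1.3), another Kv1 subunit, was higher in PV-titled libraries (log2 difference 0.50, edgeR adjusted p = 9.7e-05). Of 20 genes of Kv1 beta subunits and the axonal Kv1 complex, 6 were higher in PV-titled libraries, 9 in C-titled libraries and 5 did not pass (median log2 difference -0.03, against 0.01 over all genes). The 15 of 20 called are a smaller share than the 87.5% called over all genes. Kcnab3, a beta subunit that binds Kv1 channels, differed most: 65.3 CPM ± 22 (SD, n = 55) against 8.21 CPM ± 3.604 (SD, n = 58), a log2 difference of 3.01. The other beta subunits, Kcnab1 (-0.22) and Kcnab2 (-0.59), were higher in C-titled libraries. Lgi4 (1.71) and Lgi2 (1.45), secreted proteins of the LGI family that bind ADAM receptors, and Ank3 (1.53), the ankyrin that anchors channels at the axon initial segment, were higher in PV-titled libraries. Lgi1 (-0.57) and Lgi3 (-0.21) of the same family were higher in C-titled libraries. In C-titled libraries 5 of these 20 genes were rhythmic, near the 27% of all genes: Lgi2 (amplitude 0.30, peak ZT9.77), Adam23 (0.41, ZT6.18), Adam11 (0.12, ZT19.8), Epb41l3 (0.14, ZT2.72) and Ank3 (0.19, ZT4.37). In PV-titled libraries 1 of 20, Lgi4, was rhythmic (0.25, ZT2.45), where 3.1% of all genes were.

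Of 28 other voltage-gated potassium channel genes 22 were tested, of which 14 were higher in C-titled libraries, 6 in PV-titled libraries and 2 did not pass (median log2 difference -0.38). Over all genes 87.5% were called, 43.2% as higher in C-titled and 44.3% as higher in PV-titled libraries, so the share called is near that of all genes. The largest differences were in electrically silent subunits, which change the currents of Kv2 channels: Kcns3 was higher in PV-titled libraries (2.63), and Kcnv1 (-1.36), Kcns1 (-1.26) and Kcns2 (-1.19) were higher in C-titled ones. Kcns3 also stands in the PV marker list. In PV-titled libraries 2 of the 22 genes were rhythmic, where 3.1% of all genes were, among them the silent subunit Kcnf1 (amplitude 0.26, peak ZT20.4). In C-titled libraries 6 of the 22 were rhythmic, near the 27% of all genes. These 6 included Kcnf1 (0.11, ZT18.8), the A-type subunit Kcnd2 (0.12, ZT6.60), the silent subunits Kcng1 (0.33, ZT18.9) and Kcng2 (0.61, ZT11.1), and Kcnh4 of the ether-a-go-go family (0.57, ZT14.2).

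The genes whose mean log2 CPM over the 12 combinations of prefix and time was most like that of a member were found by Pearson's r, a description over means that share the same libraries and, for most members, the same gap between prefixes. Kcnc2 was most like Nek7 (r = 0.997), itself in the PV marker list, and Ank1 (0.997). Kcnc1 was most like Akna (0.996) and Nup188 (0.992), and Kcnc4 was most like Dnm1 (0.994) and Pianp (0.992). Genes with r above 0.95 numbered 2747 for Kcnc2, 1431 for Kcnc1 and 829 for Kcnc4. Kcna4 was most like Sh3bgrl (0.985) and Gm8822 (0.984), Kcna2 like 3110039M20Rik (0.976) and Srcin1 (0.975), and Kcna6 like Cdh15 (0.975) and Cotl1 (0.974). Kcna1, with little gap between prefixes, had no gene above 0.95 and was most like Ago2 (0.859) and Stox2 (0.856).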

How the data were processed

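Ribosome-bound RNA was sequenced from 114 libraries, with SMART-seq HT cDNA and Nextera Flex libraries per the labels' protocols. The deposited values are raw counts of reads per gene, made by the authors with FastQC and HTSeq on GRCm38, per the submitters' processing notes, which also name DESeq2. No source used here names the aligner, the annotation or any version. The table holds 13101 gene identifiers, of which 13051 matched a GENCODE vM21 symbol. The row of reads assigned to no feature stayed out of all totals. It held 51.9% to 59.4% of a C-titled library and 55.5% to 67.7% of a PV-titled one. Of the columns 113 were used and 1 was left out, since the sex in its name differs from that in the title.

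Counts were tested with R 4.3.3 and edgeR 4.0.16: TMM scaling, filterByExpr, quasi-likelihood F tests, and Benjamini-Hochberg adjustment over all genes tested with a threshold of 0.05. Prefix was fitted with time, sex and range of library numbers (142 to 200 and 260 to 319), rhythm with cosine and sine of 24 h. CPM are TMM-scaled. CPM per kb uses the merged exon length of all annotated transcripts, which may not be the length used in these cells. Libraries of low correlation lay more than 5 scaled median absolute deviations below the median r of their prefix. In 478 pairs of libraries within groups no copy was found (lowest chi-square per gene 14.0). Genes were named by rule: all 7 members, the 4 largest absolute differences and every rhythmic gene of each list, and the 2 genes most like each member. Some genes of these lists that the rule names are not reported here. Kcnab1, Kcnab2, Lgi1, Lgi3, Sst and Lamp5 were named after their values were seen. The members and lists were chosen with earlier results of these data known. Scripts were tested on simulated data. Alternatives were DESeq2 1.42.0, its size factors, no TMM, no filter, no range term, each range, sex and time left out or alone, and left-out libraries.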

Additional observations from a re-analysis of the deposited data

Results flagged for a closer look

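A library was set apart when the gap to its nearest neighbour took more of its group's range than Dixon's 95% critical value allows. This was examined in 84 groups of 8 to 10 libraries (7 genes, each prefix and time) and marked 8 of them, where chance marks about 1 in 20 groups. In PV-titled libraries all 3 were high values. Kcnc2 stood at 336.7 CPM in 1 male library at ZT10, with the others from 121 to 172.9 CPM, and that library is the highest Kcnc2 value of the series. Kcna4 stood at 24.95 CPM in 1 female library at ZT2 (others 7.68 to 13.9) and at 36.8 CPM in 1 male library at ZT10 (others 6.32 to 21.6).

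In C-titled libraries 4 of 5 were low values. Kcna6 stood at 39.0 CPM in 1 female library at ZT2 (others 67.8 to 99.9), which is among the libraries of low correlation. It stood at 56.5 CPM in 1 male library at ZT18 (others 82.5 to 106) and at 41.5 CPM in 1 male library at ZT22 (others 75.3 to 96.3). Kcnc4 stood at 38.9 CPM in 1 male library at ZT22 (others 89.4 to 113). Kcnc1 stood high, at 80.9 CPM, in 1 male library at ZT18 (others 38.4 to 59.8).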

How the results depend on the processing

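The count of members called between prefixes was 5 or 6 of 7 under all 10 alternatives. The share of all genes called ran from 79.6% (first range alone) to 88.7% (without libraries of low correlation), so these counts are near that share. Kcna1, which was not called, crossed 0 to -0.0027 with DESeq2 size factors and with DESeq2, -0.027 in the first range alone, -0.080 in females alone and -0.011 without libraries of low correlation. Leaving out each library in turn, by least squares on log2 CPM, its difference ran from -0.014 to 0.028, and the other 6 kept their direction (Kcnc2 from 1.87 to 1.91, Kcnc4 from -0.96 to -0.88). For Kcnc1 the sex difference in PV-titled libraries crossed 0 without the range term, to -5.57e-05. The count of slopes called on the PV marker level fell from 5 to 3 without Cplx1 and the libraries of low correlation together. The share of all genes that rose fell from 5.39% to 0.896%. That alternative was chosen after seeing the data, and in it Kcnc4 stood at -0.19.

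The count of rhythmic members in PV-titled libraries was 0 under all alternatives but 1. With the PV marker level as a term it was 1 (Kcna1, edgeR adjusted p = 0.0168), where 4.22% of all genes passed. In C-titled libraries it was 1 in the reported fit and 0 with no TMM factors, no range term, the first range alone, females alone, males alone, time as a factor, and without ZT6, ZT10, ZT14, ZT18 or ZT22. It was 2 without libraries of low correlation (Kcnc2 and Kcna4), and without ZT2 the 1 member called was Kcna4. Kcnc2 was called under 6 of 18 alternatives, with edgeR or DESeq2 adjusted p from 0.0295 to 0.763. Rhythmic genes among all tested ranged from 8 (males alone) to 573 (DESeq2) in PV-titled libraries, against 404 reported. In C-titled libraries they were 378 in the first range alone, 472 in males alone, 1307 with time as a factor, 1334 in the second range alone, 1479 without ZT14 and 1627 without ZT18, against 3518 reported, and 2.07% of genes passed in females alone. Genes whose rhythm differed between prefixes made up 0% (first range alone) to 1.95% (no range term), against 1.12% reported. Fits of 1 range or 1 sex hold fewer libraries, and beyond that the cause was not tested. No member differed in rhythm between prefixes under any of 10 alternatives. No paired analysis was possible because replicate numbers were given in title order and pair no libraries. Every member had at least 110 counts in every library, and intervals for counting error are not given because reads carry no molecular identifiers.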

Other observations

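Most pairs of members were positively correlated among libraries of the same kind, some of them only weakly. Pairs of other genes were not examined, so this is not shown to be particular to the members. After time, sex and range were taken out, Pearson's r of log2 CPM between pairs of members ran from -0.05 (Kcna4 and Kcnc2) to 0.80 (Kcna6 and Kcnc4) over 55 PV-titled libraries, and from 0.04 (Kcna4 and Kcnc1) to 0.76 (Kcna6 and Kcnc4) over 58 C-titled libraries. The pair Kcna6 and Kcnc4 was the highest in both sets, although the genes lie on different chromosomes and in different families. Kcnc2 and Kcnc4, whose difference between prefixes had opposite signs, had r = 0.20 among PV-titled and 0.15 among C-titled libraries. These values are descriptions, since the points share library depth, base composition and the libraries of low correlation, in which several of the lowest values of Kcnc4 and Kcna6 lie.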
